A study of Saccharomyces cerevisiae with 12 samples.

Results

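The 9 genes described here carry out gluconeogenesis, the glyoxylate cycle and the transport of the acids that feed them in *Saccharomyces cerevisiae*. They were chosen by name, as the rows of 9 systematic names among the 7127 identifiers in the tables, and all 9 passed the filter on low values. They are the gluconeogenic enzymes *PCK1* (YKR097W) and *FBP1* (YLR377C), the glyoxylate cycle enzymes *ICL1* (YER065C), *MLS1* (YNL117W), *MDH2* (YOL126C) and *CIT2* (YCR005C), and the carriers *SFC1* (YJR095W), *JEN1* (YKL217W) and *ADY2* (YCR010C). Messenger RNA of the diploid laboratory strain BY4743 was measured in 6 environments, and the purpose of the series was to set transcription beside the loss of heterozygosity along chromosome arms. Each environment had 2 replicate cultures, which gives 12 libraries. Synthetic complete medium (SC) with glucose was used at the standard 30°C, with heat (37°C), and with 40 g/l of NaCl added at 30°C. Rich medium with glucose (YPD) was used at 24°C and at 32°C, and in YPG at 30°C the glucose of the rich medium was replaced by 3% glycerol. The medium field of the YPG libraries names YPD, so they were placed by their titles. All cells were harvested in the advanced growth phase from small cultures in plates. The glucose left in the media at that point is not given in the sources used here, so the salt and the state of the carbon supply cannot be told apart. YPG differs from SC in richness as well as in carbon source.

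Gluconeogenesis builds hexose phosphates from smaller molecules and shares most of its enzymes with glycolysis, but bypasses the irreversible glycolytic steps through phosphoenolpyruvate carboxykinase (Pck1) and fructose bisphosphatase (Fbp1). The glyoxylate cycle skips the decarboxylating steps of the tricarboxylic acid cycle, so that acetate or ethanol can supply oxaloacetate for Pck1. Glycerol enters as a triose phosphate and reaches hexoses through Fbp1. In budding yeast many of these genes are classic targets of glucose repression. When glucose runs out, the Snf1 kinase relieves the Mig1 repressor, and the activators Cat8 and Sip4 bind the carbon source-responsive element in promoters of such genes.

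The deposited counts summed to between 13872996 and 14144527 per library after the scaling applied by the authors. Replicates of an environment correlated across 6082 tested genes with Pearson's r from 0.9875 in SC with NaCl to 0.9939 in YPD at 32°C, a description across genes, which are not replicates. *URA3* and *LEU2*, which are deleted in BY4743, were listed at 0 in all 12 libraries. The RNA comes from whole cultures, so more RNA per cell and more cells with the RNA cannot be told apart. The p-values measure the spread between replicate cultures.

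The core of the carbon source-responsive element was searched in the 600 bases before each start codon, since it is the site of the activators named above and 8 of the members rose in both SC with NaCl and YPG. It was taken as CC and CCG separated by any 6 bases, on both strands, in 6005 genes of the R64 reference. Matches were allowed to overlap, both of the same motif and of different motifs. The core occurred before 24.7% of all genes, before 25 of the 47 genes in the related lists given below, and before 7 of the 9 members. There were 6 matches at *MLS1*, 4 each at *MDH2* and *ADY2*, 3 each at *PCK1* and *FBP1*, 2 at *SFC1* and 1 at *ICL1*. Not all of these were separate stretches. At *MLS1* those that began 458, 450, 449 and 441 bases before the start codon formed an overlapping run. Those that began at 440 and 432 at *FBP1*, and at 511 and 503 at *ADY2*, also overlapped. *CIT2* and *JEN1* held no match in this window. For each gene, the match with the fewest differences from that of *ICL1* is printed below, and the one farthest from the start codon where 2 matches tied, as at *PCK1*, *MDH2* and *ADY2*. They come from the RefSeq sequence of R64 and are given on the strand on which the core reads CC to CCG, with the core of 11 bases in capitals and 15 bases on each side. The core at *PCK1* differed from that of *ICL1* at 1 base, and those of *FBP1*, *MLS1*, *MDH2*, *SFC1* and *ADY2* at 2 bases each. The CC and CCG ends are the same by the search, so only the 6 bases between them could differ. As the closest match was also the one chosen, small differences were partly fixed in advance. The closest matches before other genes were not measured.
ICL1, chrV:287287-287327, strand of the gene (minus): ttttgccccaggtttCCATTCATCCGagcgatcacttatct
PCK1, chrXI:630575-630615, opposite strand (minus): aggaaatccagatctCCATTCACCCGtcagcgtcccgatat
FBP1, chrXII:875271-875311, opposite strand (plus): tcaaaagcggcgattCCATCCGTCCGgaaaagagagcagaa
MLS1, chrXIV:405812-405852, opposite strand (minus): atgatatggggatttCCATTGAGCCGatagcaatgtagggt
MDH2, chrXV:83295-83335, strand of the gene (minus): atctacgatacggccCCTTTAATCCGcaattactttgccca
SFC1, chrX:609178-609218, opposite strand (minus): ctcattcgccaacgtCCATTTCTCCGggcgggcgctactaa
ADY2, chrIII:133610-133650, strand of the gene (minus): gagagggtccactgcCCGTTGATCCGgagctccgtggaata

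Among the other motifs searched, the Mig1 site (GGGG preceded by C or G and then C or T) occurred before 27.8% of all genes and before 25 of the 47 related genes. It occurred before 7 members, but not before *SFC1* or *JEN1*. The stress response element AGGGG, bound by Msn2 and Msn4, occurred before 39.7% of all genes, 27 of the 47 related genes and 6 members. *PCK1*, *FBP1* and *ICL1* held no AGGGG, *MDH2* held 3 matches and *CIT2* held 2. *CIT2* and *JEN1* thus shared the absence of the core but differed in the Mig1 site. A match of letters is a description of the sequence and does not show that a factor binds there.

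**Figure D1:**
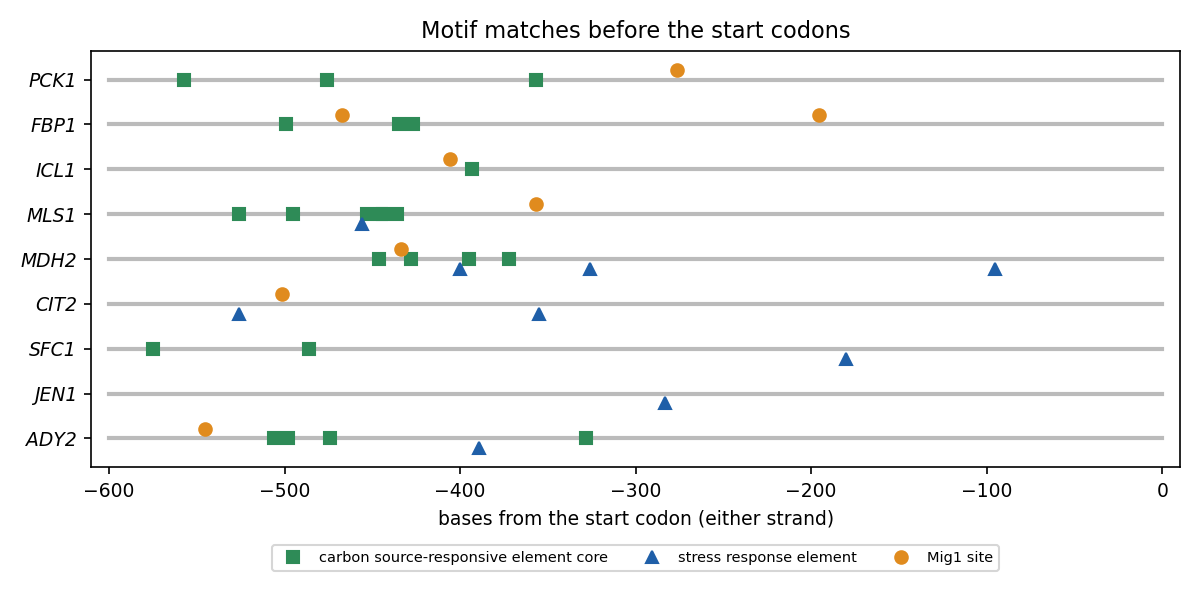
Positions of the 3 searched motifs in the 600 bases before the start codon of each of the 9 genes, with the distance from the start codon in bases on the x axis, 1 line per gene, and squares for the carbon source-responsive element core, triangles for the stress response element and circles for the Mig1 site. The core of the carbon source-responsive element appears on 7 of the 9 lines and is missing from those of *CIT2* and *JEN1*.

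The 9 genes took a far larger share of all counts in SC with NaCl and in YPG than elsewhere. Their summed share was 2.11% and 2.19% of the counts in the replicates of SC with NaCl and 0.962% and 0.968% in YPG. In SC at 30°C it was 0.0710% and 0.0787%, and it was lowest in YPD at 24°C, at 0.0201% and 0.0239%. Against SC at 30°C all 9 members were higher in SC with NaCl, where 33.8% of all tested genes were higher and 47.2% lower (limma, adjusted p under the threshold of 0.05). In YPG 8 members were higher and *CIT2* was lower, where 28.1% of all genes were higher and 38.7% lower. The median log2 fold change of the 9 was 5.995 in SC with NaCl and 4.91 in YPG, beside -0.22 and -0.11 over all tested genes. Median-of-ratios scaling moved these medians of all genes to -0.03 and 0.01 and those of the members to 6.18 and 5.04. Fold changes are on the scale of log2(count + 1) throughout, which understates the change of the lowest genes. Both comparisons use the same control libraries.

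**Figure D2:**
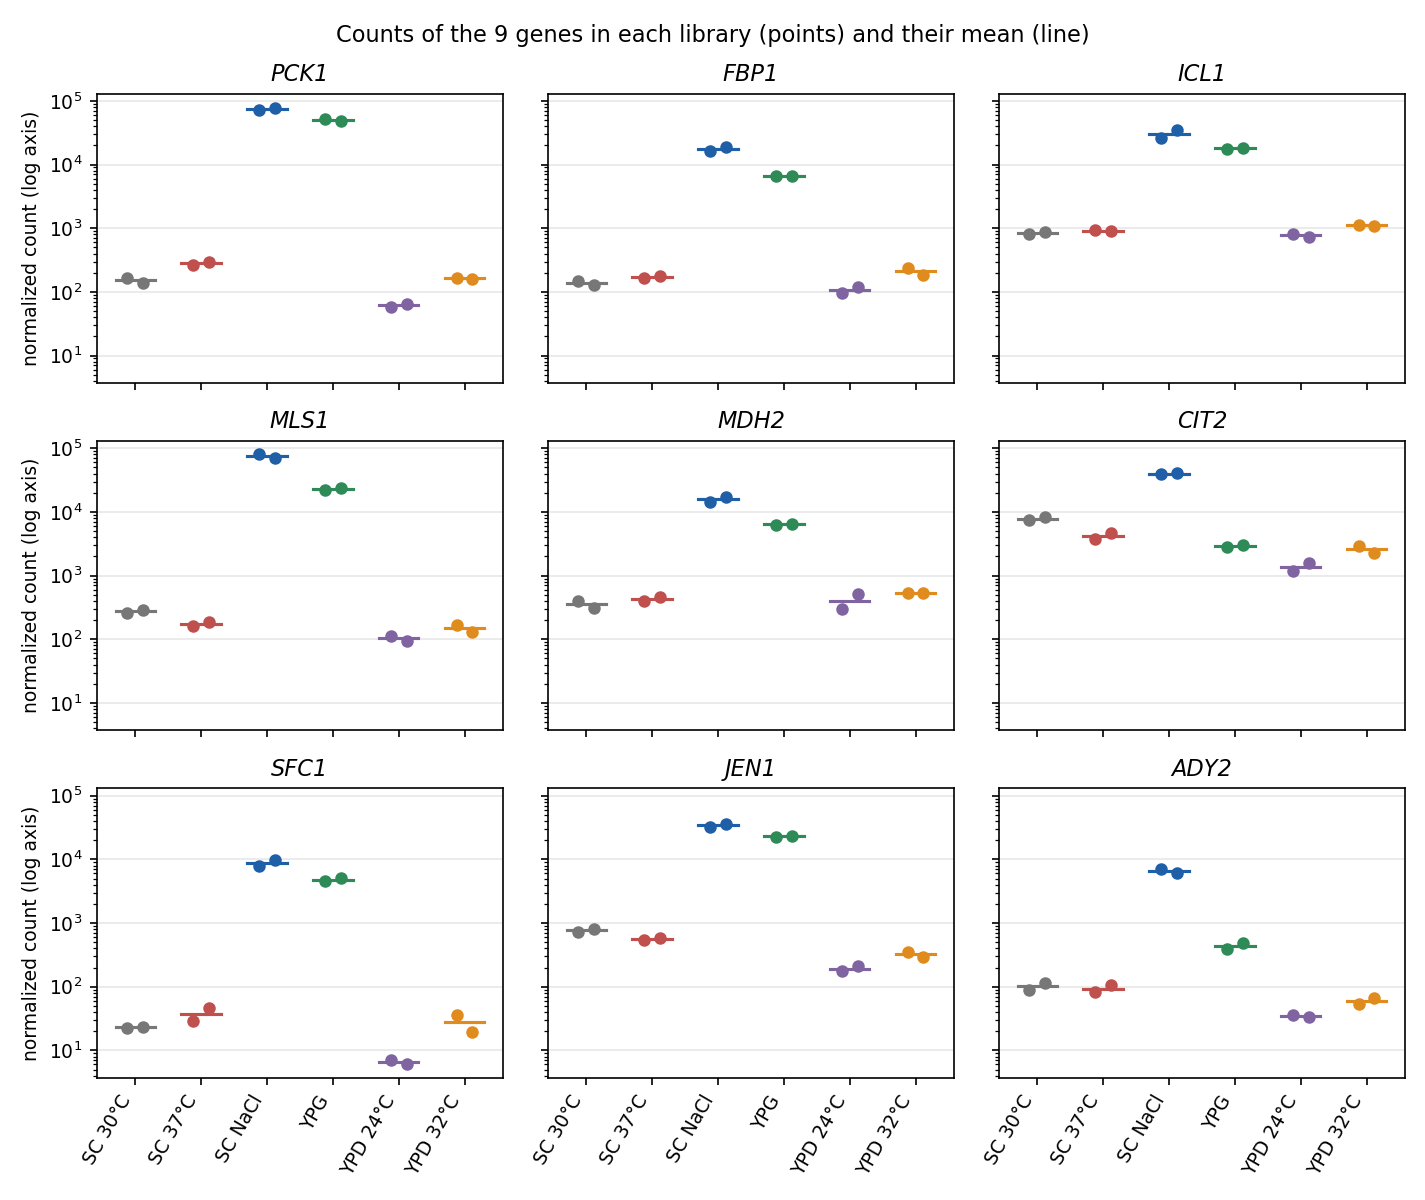
Deposited normalized counts of each of the 9 genes in the 12 libraries, with 1 panel per gene, the 6 environments on the x axis, 1 point per library and a log axis for the counts. The points of SC with NaCl lie above all others in each panel, and those of *CIT2* in YPG lie below SC at 30°C. How many of all tested genes show such a separation was not counted.

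*PCK1* encodes phosphoenolpyruvate carboxykinase, which commits carbon to gluconeogenesis, and lies on chromosome XI (631152-632801, plus strand). Its count was 167 and 138 in the replicates of SC at 30°C, 72849 and 76063 in SC with NaCl, and 52320 and 48440 in YPG. Both environments thus stood apart from SC at 30°C without overlap, and so did they from each other. The log2 fold change was 8.93 in SC with NaCl (SE 0.109, limma adjusted p = 1.09e-16) and 8.37 in YPG (SE 0.109, adjusted p = 5.41e-16). By fold change *PCK1* ranked 1 among all tested genes in YPG and 9 in SC with NaCl. *FBP1*, on chromosome XII (873746-874792, minus strand), encodes the fructose bisphosphatase of the last bypass. It had counts of 149.7 and 128 in SC at 30°C, 16304 and 19147 in SC with NaCl, and 6659 and 6501 in YPG. Its log2 fold change was 6.99 in SC with NaCl and 5.56 in YPG (SE 0.149 in both, limma adjusted p = 1.63e-14 and 5.51e-13). The gene stood at rank 24 in the first comparison and at rank 7 in the second.

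Of the glyoxylate cycle enzymes, isocitrate lyase and malate synthase catalyse the steps that are particular to the cycle. *ICL1*, the lyase gene (chromosome V, 285241-286914, minus strand), had 826 and 883 counts in SC at 30°C, 26469 and 34543 in SC with NaCl, and 17704 and 18435 in YPG. Its log2 rise was 5.14 in SC with NaCl and 4.40 in YPG (SE 0.107, limma adjusted p = 1.49e-14 and 1.88e-13). *MLS1*, the malate synthase gene (chromosome XIV, 406358-408022, plus strand), had 259 and 290 counts in SC at 30°C, 81235 and 70551 in SC with NaCl, and 21849 and 23569 in YPG. This was a log2 rise of 8.10 in SC with NaCl and 6.37 in YPG (SE 0.137, limma adjusted p = 1.98e-15 and 8.99e-14). *MDH2* encodes the cytosolic malate dehydrogenase, whose oxaloacetate Pck1 uses, and lies on chromosome XV (81787-82920, minus strand). Its counts were 393 and 314 in SC at 30°C, 14518 and 16874 in SC with NaCl, and 6153 and 6565 in YPG. It rose by 5.47 in SC with NaCl and 4.17 in YPG on the log2 scale (SE 0.183, limma adjusted p = 1.17e-12 and 1.01e-10).

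*CIT2*, the peroxisomal citrate synthase gene and a well-known target of the retrograde pathway from mitochondria to nucleus (chromosome III, 120946-122328, minus strand), moved in opposite directions. It had 7366 and 8394 counts in SC at 30°C, 39504 and 40356 in SC with NaCl, and 2801 and 3039 in YPG. The log2 fold change was 2.34 in SC with NaCl (SE 0.137, limma adjusted p = 5.63e-10) and -1.43 in YPG (SE 0.137, adjusted p = 3.58e-07). By FPKM it was the member with the highest level in SC at 30°C (390 ± 35.9, SD, n = 2) and the only one of the 9 that was lower in YPG. Against the mean of both YPD environments, however, *CIT2* in YPG was higher by 0.64 (SE 0.118, limma adjusted p = 0.000251). Its counts in YPD were 1199 and 1557 at 24°C and 2907 and 2277 at 32°C, and between YPG and YPD at 32°C the replicates overlapped and the difference did not pass the test (0.18, SE 0.137, limma adjusted p = 0.263).

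All 3 carriers rose in both environments. *SFC1* encodes the mitochondrial carrier that exchanges succinate from the glyoxylate cycle for fumarate (chromosome X, 609773-610741, plus strand). Its counts were 22.7 and 23.4 in SC at 30°C, 7728 and 9859 in SC with NaCl, and 4537 and 5016 in YPG. The log2 rise was 8.50 in SC with NaCl and 7.63 in YPG (SE 0.27, limma adjusted p = 7.37e-13 and 1.12e-11), and the gene ranked 11 and 2 among all tested genes. In the FPKM table, where 1 was added to a lower level in SC at 30°C, the rise was 7.88 and 7.01. *JEN1*, the proton symporter gene for lactate and pyruvate (chromosome XI, 22234-24084, plus strand), had 719 and 811 counts in SC at 30°C, 32537 and 35720 in SC with NaCl, and 22439 and 23589 in YPG. It rose by 5.48 and 4.91 on the log2 scale (SE 0.11, limma adjusted p = 1.05e-14 and 1e-13). *ADY2*, the acetate transporter gene (chromosome III, 132273-133124, minus strand), had 88.9 and 116 counts in SC at 30°C, 7033 and 6090 in SC with NaCl, but only 394 and 486 in YPG. Its log2 rise was 5.995 in SC with NaCl and 2.096 in YPG (SE 0.199, limma adjusted p = 1.08e-12 and 3.29e-07).

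Gene by gene, every member was lower in YPG than in SC with NaCl (limma adjusted p under 0.05). In this comparison 39.3% of all tested genes were lower and 41.9% higher. The difference was smallest for *PCK1* and *JEN1*, at -0.56 and -0.57 on the log2 scale (SE 0.109 and 0.11), which is a 1.48-fold lower count in YPG for each. *ICL1* was 1.67-fold and *SFC1* 1.83-fold lower in YPG. A wider gap was seen for *MDH2* (2.46-fold lower), *FBP1* (2.69-fold) and *MLS1* (3.34-fold, log2 difference -1.74, SE 0.137, limma adjusted p = 1.63e-08). *CIT2* was 13.7-fold lower in YPG (log2 difference -3.77, SE 0.137, limma adjusted p = 1.88e-12), and *ADY2* was 14.9-fold lower (-3.90, SE 0.199, adjusted p = 8.66e-11). Thus 5 members differed by more than 1 log2 unit and 2 of these by more than 2. The largest limma adjusted p was that of *SFC1*, 0.00825, and this call was lost without replicate 2 of SC with NaCl (adjusted p = 0.0809) and without replicate 1 of YPG (0.0592), with log2 differences of -0.70 and -0.80.

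**Figure D3:**
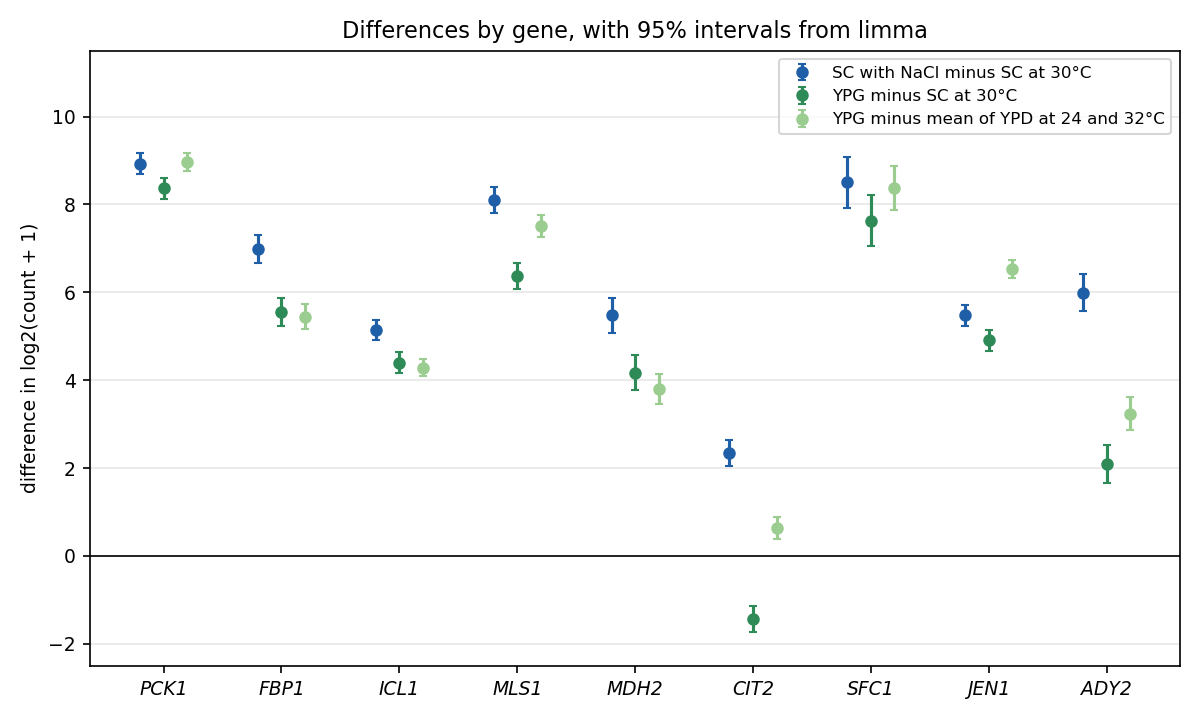
Log2 fold change (y axis, difference in log2(count + 1)) of the 9 genes in SC with NaCl and in YPG against SC at 30°C, and in YPG against the mean of both YPD environments, with 95% intervals from the limma fit and a line at 0. Against SC at 30°C the value in YPG is the smaller for each gene, the gap is widest for *ADY2* (5.995 against 2.096) and *CIT2* (2.34 against -1.43), and only *CIT2* falls below 0.

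Compared with the mean of both YPD environments instead of SC, YPG gave higher counts for all 9 members, where 34.7% of all tested genes were higher and 32% lower. For *CIT2* this rested on YPD at 24°C, as given above. *PCK1* was again the gene with the largest fold change of all tested genes (8.96, SE 0.0943, limma adjusted p = 2.79e-17). *SFC1* followed among the members at 8.38, *MLS1* at 7.51 and *JEN1* at 6.53. The rise of *JEN1* was thus 6.53 against YPD and 4.91 against SC at 30°C, and that of *ADY2* 3.24 and 2.096. *FBP1* rose by 5.45, *ICL1* by 4.28 and *MDH2* by 3.80. The median over the members was 5.45, beside 0.03 over all tested genes.

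Temperature and glucose medium moved 8 of the 9 genes less than glycerol or salt did, the exception being *CIT2*, whose fall in YPD at 24°C was larger than its rise with salt. At 37°C in SC *PCK1* was higher than at 30°C, with counts of 269 and 289.9 (log2 fold change 0.88, SE 0.109, limma adjusted p = 4.91e-05). *CIT2* was lower, with 3814 and 4600 counts (-0.91, adjusted p = 0.00025), as were *MLS1* with 161 and 184 (-0.67, adjusted p = 0.00294) and *JEN1* with 548 and 573 (-0.45, adjusted p = 0.00946). The call of *JEN1* was lost without replicate 2 of SC at 30°C (limma adjusted p = 0.0974) or without replicate 1 at 37°C (0.0642). The other 5 members did not pass the test, and *SFC1* had the largest of these values, 0.63 (95% interval 0.05 to 1.21, limma adjusted p = 0.114). Over all tested genes 11.9% were higher and 11.6% lower at 37°C. Of the genes called, 50.7% were higher, 62% with upper quartile scaling and 45.2% with median-of-ratios scaling.

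In YPD at 24°C 7 members were lower than in SC at 30°C and none was higher, where 45.6% of all tested genes were lower and 10.4% higher. Of the genes called, 18.6% were higher, but 48.8% with median-of-ratios scaling and 46.6% with upper quartile scaling, which moved the median of all tested genes from -0.28 to 0.00 and -0.02. *CIT2* fell by 2.52 on the log2 scale, *JEN1* by 1.99 to counts of 175 and 208, and *SFC1* by 1.69 to counts of 6.94 and 5.996. In the FPKM table, where 1 was added to a lower level, *SFC1* fell by 0.85. *ADY2* fell by 1.54, *MLS1* by 1.41 and *PCK1* by 1.296, the last to counts of 57.5 and 65.0. These 6 calls held under both scalings. The fall of *FBP1* by 0.38 (limma adjusted p = 0.0415) was not called under median-of-ratios scaling (-0.10, adjusted p = 0.551) or upper quartile scaling (-0.11, adjusted p = 0.478), or without replicate 1 of SC at 30°C (0.236) or of YPD at 24°C (0.313). *ICL1* had 802 and 738 counts and *MDH2* 303 and 509, and neither passed the test. *MDH2* was higher by 0.45 with median-of-ratios scaling (limma adjusted p = 0.0496) and by 0.53 without replicate 1 of YPD at 24°C (0.0106).

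At 32°C in YPD 4 members were lower than in SC at 30°C and 3 were higher, where 21.5% of all tested genes were lower and 16.7% higher. *CIT2* fell by 1.61, *JEN1* by 1.25 to counts of 350.02 and 295, *MLS1* by 0.88 and *ADY2* by 0.75. *FBP1* was higher by 0.61 with 240.2 and 186 counts, *MDH2* by 0.59 with 529 and 532, and *ICL1* by 0.39 with 1139 and 1096. Without replicate 1 of YPD at 32°C none of these 3 was called, nor was *ADY2*, and 3 members were past the threshold in all. Without replicate 2 of SC at 30°C 4 were called, of which 1 was higher. *PCK1* (165 and 162 counts) and *SFC1* (36.0 and 19.7) did not pass the test, with log2 differences of 0.11 (95% interval -0.12 to 0.34) and 0.20 (-0.38 to 0.78). Within YPD 8 members were lower at 24°C than at 32°C and none was higher, where 42.6% of all tested genes were lower, 6.71% higher and 49.3% different in either direction. The median of all tested genes was -0.26 here, and 0.00 with median-of-ratios scaling and -0.01 with upper quartile scaling, which moved the share of higher genes among those called from 13.6% to 50.8% and 49.4%. With either scaling 7 members were lower and *MLS1* was not called (limma adjusted p = 0.149 and 0.128). The difference was widest for *SFC1* (-1.89, SE 0.27) and *PCK1* (-1.41, SE 0.109), or -1.65 and -1.15 with median-of-ratios scaling, and *MDH2* did not pass the test (-0.43, 95% interval -0.82 to -0.04, limma adjusted p = 0.064). Without replicate 2 at 24°C *MDH2* was called (-0.80, limma adjusted p = 0.0012) and *MLS1* was not (0.0804), *MLS1* was also lost without replicate 1 at 32°C (0.1), and *ADY2* without replicate 2 at 32°C (0.0532).

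Ordered by mean count, SC with NaCl stood first for all 9 members and YPG second for 8, while YPD at 24°C was last for 8. The exceptions were *CIT2*, for which SC at both temperatures came before YPG, and *MDH2*, for which SC at 30°C was last. How many of all tested genes share these places was not counted. The orders are on the deposited scale, on which the median of all tested genes in YPD at 24°C was -0.285 against SC at 30°C (0.00 with median-of-ratios scaling). Of the 45 pairs of neighbours in these orders 32 differed (limma adjusted p under 0.05) and 13 did not. None of the 9 pairs at the top of the order was among the 13, which lay between the glucose media, with the exception of *CIT2* in YPG and in YPD at 32°C (2801 and 3039 against 2907 and 2277 counts). For *JEN1* all 5 neighbouring pairs differed, with SC with NaCl and YPG followed by SC, first at 30°C and then at 37°C, and by YPD, first at 32°C and then at 24°C. For *MDH2* the last 4 environments, with means between 354 and 530.4 counts, could not be ordered by their neighbours. As a background to these orders, 66.6% of all tested genes differed between SC at 37°C and YPG, 57.7% between SC at 37°C and YPD at 24°C, 40.6% between SC at 37°C and YPD at 32°C, and 63.4% between YPG and YPD at 32°C.

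FPKM values, which are scaled to transcript length, allow levels to be set between genes. In SC at 30°C *CIT2* made up 76.2% ± 1.48 of the summed FPKM of the 9 genes (SD, n = 2), and *PCK1* 1.25% ± 0.259. In SC with NaCl the share of *CIT2* was 14.2% ± 0.208, and *MLS1* (22.4% ± 2.89) and *PCK1* (22.1% ± 0.0171) were the largest. In YPG *PCK1* alone made up 35.2% ± 2.12, *MLS1* 15.7% ± 0.748 and *CIT2* 2.43% ± 0.126. The summed FPKM of the 9 was 511 ± 37.2 in SC at 30°C and 13943 ± 415 in SC with NaCl. The level of *PCK1* was 6.31 ± 0.858 FPKM in SC at 30°C, but 3087 ± 94.3 with NaCl and 2089 ± 114 in YPG (SD, n = 2). That of *MLS1* was 11.3 ± 0.887, 3119 ± 311 and 933 ± 49.98. *ADY2* was at 8.23 ± 1.55 FPKM in SC at 30°C, at 527 ± 53.5 with NaCl and at 35.3 ± 5.21 in YPG, which made it the member with the lowest level in YPG. *SFC1* was the lowest in SC at 30°C, at 1.63 ± 0.0376 FPKM.

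Several members have close relatives, so the identical runs that reads could share were measured. The coding sequence of *MLS1* was 73.8% identical to that of *DAL7*, with a longest identical run of 19 bases, that of *CIT2* was 73.2% identical to *CIT1* (21 bases), and that of *ADY2* was 70.8% identical to *ATO2* (17 bases). No annotated gene overlapped a member. The counts in the lists of related genes below are to be read beside the shares over all tested genes, 33.8% higher and 47.2% lower in SC with NaCl and 28.1% higher and 38.7% lower in YPG. Among 8 isozymes and paralogs, 6 were higher and 1 lower in SC with NaCl and 5 higher and 2 lower in YPG (1 lower with median-of-ratios scaling). *CIT1*, the mitochondrial citrate synthase gene, rose by 2.77 in SC with NaCl and fell by 0.36 in YPG on the log2 scale (SE 0.0939, limma adjusted p = 1.37e-12 and 0.00367). Its counts were 5855 and 6159.95 in SC at 30°C, 43062 and 38763 in SC with NaCl, and 4377 and 5009.9 in YPG. Against SC at 30°C *CIT1* and *CIT2* were thus both higher with salt and lower in YPG, though the fall of *CIT1* was the smaller (-0.36 against -1.43). With median-of-ratios scaling only 1 of the 2 falls in YPG in this list, those of *CIT1* and *MDH3*, stayed called. In YPD the counts of *CIT1* were below those in YPG, at 2502 and 2816 at 24°C and 2851 and 2678 at 32°C. *CIT3*, a further citrate synthase gene, was higher with salt (2.09) and not past the test in YPG (-0.32, limma adjusted p = 0.117). *DAL7*, a malate synthase gene of allantoin breakdown, did the reverse of these, at -0.52 in SC with NaCl and 1.46 in YPG. The peroxisomal malate dehydrogenase gene *MDH3* was at 0.33 and -0.75, and the mitochondrial *MDH1* at 1.47 and 0.76.

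Of 12 genes for enzymes and carriers that feed the pathway, 8 were higher and 4 lower in SC with NaCl, and 10 were higher and 2 lower in YPG (all tested genes: 33.8% and 47.2%, then 28.1% and 38.7%). *ACS1*, an acetyl-CoA synthetase that activates acetate, had 396 and 429 counts in SC at 30°C, 52417 and 39459 in SC with NaCl, and 1202 and 1414 in YPG. Its log2 rise was 6.78 in SC with NaCl and 1.66 in YPG (SE 0.141, limma adjusted p = 1.49e-14 and 1.08e-07). The acetate transporter gene *ADY2* had likewise risen more with salt. The other acetyl-CoA synthetase gene, *ACS2*, fell in both, by 1.48 and 0.36, and the mitochondrial dicarboxylate carrier gene *DIC1* by 2.99 and 2.03. In YPD the means of *ACS2* were 7611 counts at 24°C and 9590 at 32°C, beside 9092 in YPG. *IDP2*, the cytosolic isocitrate dehydrogenase gene, rose by 6.64 and 4.67. The carnitine genes, which serve the transfer of acetyl units into mitochondria, were higher in both, with *CRC1* at 6.31 and 4.43, *YAT1* at 5.85 and 2.41, *YAT2* at 4.78 and 1.55, and *CAT2* at 4.86 and 0.51. *MAE1*, the mitochondrial malic enzyme gene, moved in opposite directions, at -1.22 in SC with NaCl and 2.06 in YPG, as did the pyruvate carboxylase gene *PYC2* at -0.82 and 0.72. The mean of *MAE1* was 2427 counts in SC at 30°C and 10144 in YPG, but also 8958 in YPD at 24°C and 9732 at 32°C. Against the mean of both YPD environments, 9 of the 12 genes were higher in YPG and 1 was lower. Over all tested genes 34.7% were higher and 32% lower there. The other pyruvate carboxylase gene, *PYC1*, was higher in both, at 1.98 and 1.43.

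Among 12 genes of transcription factors and kinases of carbon source control, 8 were higher and 2 lower in SC with NaCl, and 6 were higher and 5 lower in YPG. The 5 of 12 lower in YPG are near the 38.7% of all tested genes that were lower there. With either rescaling 10 were higher in SC with NaCl. *CAT8* had 414 and 418 counts in SC at 30°C, 5386 and 5221 in SC with NaCl, and 769.5 and 677 in YPG. This was a log2 rise of 3.67 with salt and 0.79 in YPG (SE 0.105, limma adjusted p = 2.51e-13 and 9.87e-06). *SIP4* rose by 4.63 and 1.80, *ADR1*, an activator of genes for ethanol and fatty acid use, by 3.97 and 1.24, and *HAP4*, the regulatory subunit gene of the activator of respiration, by 3.31 and 2.40. The repressor gene *MIG2* was higher with salt (0.63) and lower in YPG (-1.98). *SNF4*, of the same list, had lower means in both, with 1707 counts in SC at 30°C, 729 with NaCl and 1045 in YPG. For the kinase gene *SNF1* these means were 2436, 2678 and 1734, and for the repressor gene *MIG1* 1963, 2313 and 1518. *HXK2*, the hexokinase of growth on glucose, fell by 4.56 in SC with NaCl, to counts of 440.4 and 708 from 13462 and 12898, and by 1.24 in YPG. The level of *HXK2* thus moved against those of the members that rose, and its part in the result was not tested.

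The GID ubiquitin ligase marks Fbp1 and other gluconeogenic enzymes for breakdown when glucose returns. All 8 of its listed genes were higher in SC with NaCl (33.8% of all tested genes), while in YPG 7 were lower and 1 was higher (6 lower with median-of-ratios scaling), where 38.7% of all tested genes were lower. *VID24*, which encodes the subunit that recognises the substrates, was higher in both, at 3.34 and 1.72 on the log2 scale. *VID30* had 953 and 1069.9 counts in SC at 30°C, 3240.2 and 3245 in SC with NaCl, and 236 and 295 in YPG (log2 fold changes 1.68 and -1.93, SE 0.138, limma adjusted p = 2.64e-08 and 1.59e-08). Of 7 genes for the opposing glycolytic steps, 2 were higher and 5 lower in SC with NaCl (4 lower with either rescaling), and in YPG 6 were lower and none higher. Here the 2 of 7 higher with salt are near the 33.8% over all tested genes, of which 47.2% were lower, and in YPG 38.7% were lower. Pyruvate kinase (*CDC19*), which acts against Pck1, fell by 2.81 and 1.96, and both phosphofructokinase subunits, *PFK1* and *PFK2*, which act against Fbp1, fell in both. *PFK26* and *FBP26*, whose products make and remove an allosteric activator of phosphofructokinase, were the genes that rose with salt, by 2.26 and 2.39, and were at -0.45 and -0.14 in YPG, the latter not past the test (limma adjusted p = 0.307).

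**Figure D4:**
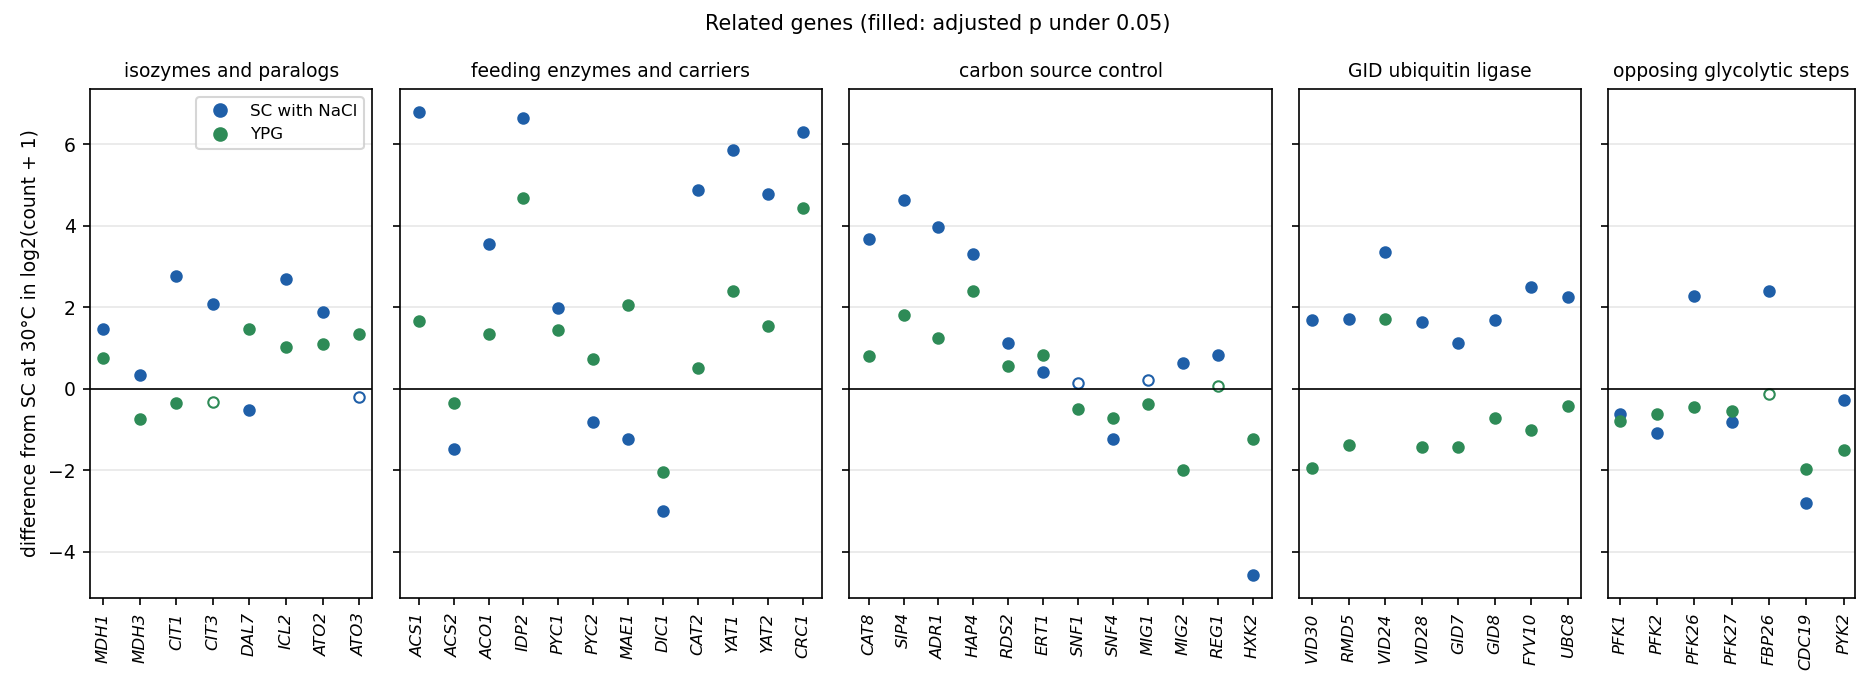
Log2 fold change against SC at 30°C of the genes of the 5 related lists, in SC with NaCl and in YPG (y axis), with 1 panel per list, the genes on the x axis, and filled points for a limma adjusted p under 0.05. The genes of the GID ligase lie above 0 in SC with NaCl and, apart from *VID24*, below 0 in YPG.

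The likeness of other genes to a member was measured as the root mean square difference of their centred log2 means over the 6 environments, among 5664 candidates, the tested genes outside the 9 whose identifier is in the annotation. *URA10*, an orotate phosphoribosyltransferase gene, came closest to *CIT2* (0.146), and *SOD1*, the copper and zinc superoxide dismutase gene, followed (0.299). The nearest member to *CIT2* was *ADY2*, at 1.42, so its pattern lay apart from those of the other members. The genes closest to *ADY2* were the transketolase gene *TKL2* (0.231) and the hexose transporter gene *HXT5* (0.315). *TKL2* had a mean of 462 counts in SC at 30°C, and of 36774 with NaCl and 1692 in YPG. *PCK1* and *SFC1* were nearest to each other (0.276), as were *ICL1* and *MDH2* (0.196). Outside the 9, the closest gene was *DPA10* for *PCK1* (0.859), *MLS1* (0.408) and *SFC1* (0.85), *IDP2* for *FBP1* (0.308), *NCA3* for *ICL1* (0.478), *POT1*, the thiolase gene of fatty acid oxidation, for *MDH2* (0.513), and the proline permease gene *PUT4* for *JEN1* (0.428). *PUT4* had a mean of 367 counts in SC at 30°C, and of 25422 with NaCl and 14360 in YPG. That of *DPA10* was only 4.29 in SC at 30°C, and 1073 with NaCl and 501 in YPG. Its value in SC at 30°C thus rests on few reads and on the added 1. The second closest were *PUT4* for *PCK1*, *MLS1* and *SFC1*, YGR067C for *FBP1*, *REG2* for *ICL1* and *MDH2*, and *ECM13* for *JEN1*.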

How the data were processed

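RNA of 12 libraries (6 environments, 2 replicates each) was sequenced. The authors aligned the reads to the yeast genome (R64) with Hisat2, handled alignments with SAMtools (1.9 per the submitters' processing notes) and quantified genes with the Cufflinks tools, ending in Cuffnorm. The labels call the libraries non-paired, while the study's methods describe paired reads. The authors deposited library-size-normalized estimated counts, a signal that need not be whole, and FPKM values from the same programs, scaled to transcript length and mapped fragments, with no pooling of replicates. The step between low values (0.5 to 20) implied 12400000 to 15500000 read pairs per library, but only 74.2% to 82.0% of these values were whole multiples of the step (tolerance 0.01 of the step), so no count model was used. Low genes are limited by this depth.

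The 6082 of 7127 identifiers that averaged 10 counts or more were tested with limma 3.58.1 (R 4.3.3) on log2(count + 1), with a trend on the mean, all libraries in 1 fit, the environment as factor, and Benjamini-Hochberg adjustment within each comparison (threshold 0.05). The fit was tested on simulated data. There were 7 comparisons, and all 15 pairs of environments were fitted for the orders and for YPD at 24°C against 32°C, whose alternatives were chosen after seeing the data. Groups were taken from the sample titles. All members were named, the genes of 5 related lists were counted, and those named may or may not have passed the test, and the 2 genes most like each member were named. The members and lists were chosen with earlier results of these data known. Of the identifiers, 6047 matched locus tags of the R64 annotation. Alternatives were pseudocounts of 0.5 and 10, no filter, median-of-ratios and upper quartile scaling, the FPKM table, a fit of 3 environments, a replicate block, and leaving out each library. Sequences and figures were made with Python 3.11.15, Biopython 1.88, numpy 2.4.6, pandas 2.3.3 and matplotlib 3.10.9.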

Additional observations from a re-analysis of the deposited data

How the results depend on the processing

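Among the called values of single genes, 454 of 461 kept their direction and stayed past the threshold under the alternatives of scaling, filter, pseudocount, table and fit, and 724 of 744 when each library was left out in turn. The others kept their direction and lost the call, and no called value changed sign. Of the values that were not called, 1 of 70 and 2 of 120 became called. The losses concerned *FBP1* in YPD at 24°C, *SFC1* between YPG and SC with NaCl, *JEN1* at 37°C, *MLS1* and *ADY2* between 24°C and 32°C in YPD, and *FBP1*, *ICL1*, *MDH2* and *ADY2* in YPD at 32°C. In YPD at 24°C the number of members higher than in SC at 30°C was 1 in place of 0 with median-of-ratios scaling. *FBP1* there was also not called without the filter (limma adjusted p = 0.0794) or in the FPKM table (0.0604), nor *MDH2* in YPD at 32°C without the filter (0.0745), and the cause was not tested. The rise of *SFC1* in YPG against YPD was 8.38, and between 7.36 and 8.44 under the alternatives of scaling, filter, pseudocount, table and fit. With single libraries left out, the number of genes called between 37°C and 30°C in SC ranged from 842 to 1986 around 1425 and between YPD at 24°C and 32°C from 1825 (without replicate 1 at 32°C) to 3543 around 3000, the members called in YPD at 32°C from 3 to 7 and those higher from 0 to 3, and the members higher in YPD at 24°C from 0 to 1. The members called between YPG and SC with NaCl ranged from 8 to 9, those called between 24°C and 32°C in YPD from 7 to 8, and the neighbours that differed in the orders from 29 to 32. Where a library was left out, the lone sample of its environment was assumed to vary like the other groups.

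The replicate numbers showed little sign of pairing the cultures. Of 15 pairs of environments 1, SC at 30°C with SC at 37°C, had a correlation of deviations over 0.1, in a range from -0.0941 to 0.213. Whether the cultures of this pair were linked cannot be told from the correlation. With the replicate block 4944 genes were called in SC with NaCl and 4103 in YPG against SC at 30°C, in place of 4923 and 4066, and the block changed no call of a member.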
